A study of Gallus gallus with 24 samples.

Results

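Resting DF1 cells were compared between IRF9 knockdown and mock cultures in the 6 libraries labelled 0 h, 3 of each genotype, out of 24 libraries in the series. DF1 is a spontaneously immortalised line of chicken embryonic fibroblasts. The mock libraries are labelled wild type and the knockdown libraries carry the IRF9 label. All 24 libraries, those at 0 h included, have poly(I:C), which mimics viral double-stranded RNA, as their treatment label, so what the cells had received at 0 h is known only as far as the time label says. The other 18 libraries, taken at 30 min, 1 h and 6 h, were used to estimate the spread between replicates and as a second set of libraries for the same genotypes. The sources used here do not give how the knockdown was made, whether it is a single clone, or how poly(I:C) was applied. The labels do not say that replicates are separate cultures. The p-values therefore cover the spread between these libraries alone, and that spread may be technical. Messenger RNA was enriched by poly(A) selection and sequenced as directional libraries, and the deposited values are whole-number counts per gene. Levels are given as CPM, a gene's counts relative to the library's total counts in genes after TMM scaling.

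IRF9 is a transcription factor of the interferon regulatory factor family. In mammals it joins STAT2 in the complex ISGF3, which enters the nucleus after type I or type III interferon binds its receptor and turns on interferon-stimulated genes. Fibroblasts sense viral RNA through Toll-like receptor 3 in endosomes and through cytosolic helicases, and chickens are known to lack the helicase RIG-I and to rely on MDA5, the product of IFIH1. Whether a knockdown of IRF9 alters a cell that has not been stimulated is the question this comparison addresses.

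The 6 libraries held 14105386 to 19808842 counts in genes, and 15440 to 15694 genes had at least 1 count. A count of 3, used as the limit that a count of 0 allows, came to 0.151 to 0.215 CPM and covers counting error only. Mock replicate 2 stood apart from the other 5 libraries. It lay at 23.4 on the first principal component, which held 50.9% of the variance, and the others lay between -7.34 and -2.31. In mock replicate 2, 28 of 9449 genes differed at least 2-fold from the mean of the other libraries, against 1 or 2 genes in each of the others. List medians that move with this library are given with and without it.

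The gene listed as IRF9 was lower in the knockdown libraries. IRF9 is a protein-coding gene (identifier 395243) at positions 10406021 to 10408887 of chromosome 20 in GRCg7b, and the gene table gives IRF10 as a synonym. The labels name IRF9 but do not say against which sequence the knockdown was designed. Its level was 29.1, 27.2 and 26.4 CPM in mock replicates 1 to 3 and 15.7, 16.03 and 21.6 CPM in knockdown replicates 1 to 3. The groups did not overlap, and knockdown replicate 3 was nearest to the mock libraries. The means were 27.6 ± 1.40 CPM in mock and 17.8 ± 3.30 CPM in knockdown cells (SD, n = 3 each), so the knockdown cells held 64.5% of the mock level. On the log2 scale the difference was -0.63 (SE 0.18, 95% interval -0.999 to -0.27). It was the smallest unadjusted p of all 13000 genes tested, but after adjustment it did not pass (adjusted p = 0.997, edgeR's quasi-likelihood test). An exact two-sided permutation test of the 6 libraries gave p = 0.1, the smallest that 3 against 3 allows. In bulk RNA, fewer cells carrying the transcript and less transcript per cell cannot be told apart.

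The later libraries gave the same direction for IRF9. At 30 min the mock libraries held 45.3, 29.9 and 28.7 CPM and the knockdown libraries 12.8, 16.2 and 18.97 CPM. At 1 h the values were 25.0, 28.8 and 27.1 CPM against 12.2, 14.0 and 19.8 CPM, and at 6 h 33.5, 33.1 and 31.9 CPM against 21.0, 20.9 and 23.2 CPM. No knockdown library reached the lowest mock library of its time. Averaged over these 3 times, IRF9 fell by 0.84 on the log2 scale (SE 0.10, edgeR adjusted p = 0.000338). The difference between the contrast at 0 h and this later average was 0.21 on the log2 scale (SE 0.20), with an edgeR adjusted p of 1.

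**Figure D1:**
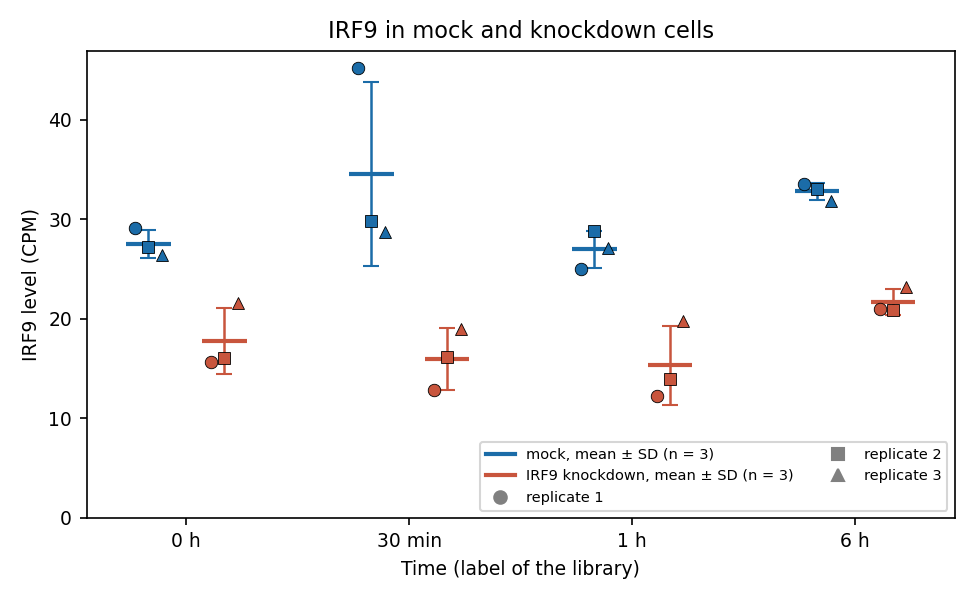
IRF9 level in CPM (vertical axis, from 0) in each of the 24 libraries by time label (horizontal axis), with mock in blue, knockdown in red, symbols for the replicate number, and bars for the mean ± SD of 3 libraries. At 0 h the mock libraries lie at 26.4 to 29.1 CPM and the knockdown libraries at 15.7 to 21.6 CPM.

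At 0 h, 0 of 13000 genes (0%) were called at an edgeR adjusted p under 0.05, and the smallest adjusted p was 0.997. At an unadjusted p under 0.05 there were 196 genes, 1.51% of those tested. Where no gene differs, this threshold would pass a share of about 0.05. The main model was therefore cautious at 0 h, and 0 calls do not show that no gene differs. In edgeR on the 6 libraries alone, 404 of 12177 genes were under the threshold, and 715 with a term for the replicate number. DESeq2 and limma voom also called 0 genes, and an unadjusted p under 0.05 was found for 230 and 242 genes. The 3 knockdown libraries all lay above the 3 mock libraries for 612 genes (4.71%) and below them for 651 genes (5.01%), 9.72% in all. Complete separation of 3 against 3 has p = 0.1 in an exact two-sided permutation test, and 9.72% is near that rate. The median log2 difference over all tested genes was 0.00 and the median of its size was 0.12. Of 11429 genes at or above 1 CPM, 10244 (89.6%) had a 95% interval that lay within a 2-fold difference in either direction, and 7951 (69.6%) had one within 1.5-fold. These intervals are not adjusted for the number of genes.

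**Figure D2:**
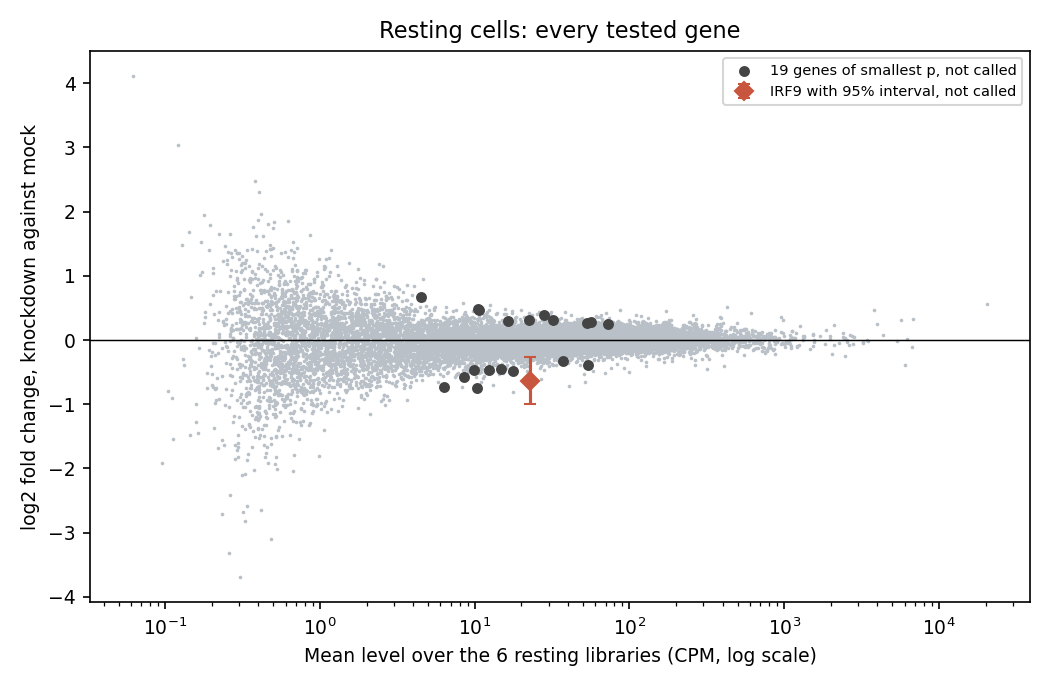
Log2 fold change of knockdown against mock at 0 h (vertical axis) against the mean level over the 6 resting libraries in CPM (horizontal axis, log scale), 1 grey point for each of the 13000 tested genes. IRF9 (red, with its 95% interval of -0.999 to -0.27) and the 19 other genes named for the smallest p in each direction (dark points) are marked, and none passed the adjusted threshold.

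Averaged over 30 min, 1 h and 6 h, edgeR called 1 gene of 13000 (0.00769%), which was IRF9, with 1007 genes at an unadjusted p under 0.05. The contrast at 0 h differed from that average for 0 genes (0%), with 129 at an unadjusted p under 0.05. These 2 contrasts share no library. Across the tested genes, which are not independent replicates, the contrasts at 0 h and at the later times had the same sign for 68.0% of genes, with a Pearson r of 0.22. Mock replicate 2 is also the number of a library in each later mock group. With its 4 libraries left out, an unadjusted edgeR p under 0.05 was found for 527 genes in the later average and 154 at 0 h. IRF9 stayed the 1 gene called in the later average. The shared sign and the correlation were not computed without these libraries, so the part of mock replicate 2 in this likeness was not tested.

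None of the genes next in order of p passed the adjusted test, and their values are given as a description (edgeR adjusted p = 0.997 for each). In the higher direction, CDC42EP2, an effector of the small GTPase CDC42, was at 9.03, 8.09 and 9.21 CPM in mock and 12.5, 11.5 and 12.9 CPM in knockdown libraries, a log2 difference of 0.49 (SE 0.16). FSBP, a DNA-binding protein, averaged 8.97 ± 0.856 CPM in mock and 12.3 ± 2.02 CPM in knockdown cells. RUNX1, a transcription factor of blood and bone development, was at 67.3, 59.7 and 72.6 CPM in mock and 79.9, 78.7 and 79.2 CPM in knockdown libraries, a log2 difference of 0.25 (SE 0.10). The knockdown libraries lay close together for RUNX1, while the mock libraries spread over a wider range.

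DTD1, which removes D-amino acids from tRNA, had a log2 difference of 0.39, and CEP164, a protein of the centriole's distal appendages, one of 0.30. For ZBTB24, a zinc finger protein, and FRA10AC1 the differences were 0.30 and 0.31. CHCHD4, which folds proteins imported into mitochondria, and RBM45, an RNA-binding protein, stood at 0.29 and 0.26, and OZFL at 0.68 on a mean of 3.46 ± 1.12 CPM in mock cells. The groups did not overlap for any of these 10 genes, which the choice by smallest p favours. Of the 10, 9 had a difference above 0 in the later average as well, between 0.00 for FRA10AC1 and 0.27 for OZFL, and none was called there. The exception was CDC42EP2, at -0.02. Over all tested genes, 68.0% had the same sign in both contrasts.

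In the lower direction, PLCD3, a phospholipase C that cleaves membrane inositol lipids, was at 20.2, 23.4 and 18.4 CPM in mock and 15.3, 14.5 and 14.6 CPM in knockdown libraries, a log2 difference of -0.48 (SE 0.16). MAP9, a protein of the mitotic spindle, averaged 10.1 ± 0.793 CPM in mock and 6.81 ± 0.815 CPM in knockdown cells. SRPX, a secreted sushi-repeat protein, was at 8.17, 7.98 and 7.62 CPM against 5.30, 4.88 and 4.08 CPM, a log2 difference of -0.74 (SE 0.26). For each of these genes every knockdown library lay below every mock library.

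PYGL, the liver form of glycogen phosphorylase, averaged 61.4 ± 8.14 CPM in mock and 47.0 ± 2.33 CPM in knockdown cells. The other 5 genes in this direction were POP1, a subunit of the RNA-processing enzymes RNase P and RNase MRP, NPS, the neuropeptide S precursor, AASDHPPT, which activates carrier proteins, RARS2, the mitochondrial arginyl-tRNA synthetase, and FAM210B. Their log2 differences ran from -0.74 for NPS to -0.33 for POP1. Of the 9 genes, 7 were below 0 in the later average, with -0.31 for PLCD3, -0.29 for SRPX and -0.28 for PYGL, and MAP9 and AASDHPPT were at 0.03 and 0.05. None of the 9 was called there.

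The interferon system is the known field of action of IRF9 in mammals, and its genes showed no called difference at 0 h. In the list of interferon regulatory factors, 7 of the 9 genes matched were tested, 0 were called, and the median log2 difference, IRF9 included, was 0.04, beside 0.00 over all genes tested. Without mock replicate 2 the median was 0.00, with 3 genes above 0 and 4 below in place of 5 and 2. IRF5, an activator of inflammatory genes, was at 1.29, 0.745 and 1.06 CPM in mock and 0.707, 0.348 and 0.391 CPM in knockdown libraries. Its groups did not overlap, its log2 difference was -1.05 (SE 0.63), and the gene rested on 74 counts in all 6 libraries. IRF1, itself induced by interferon, was at 2.65, 2.50 and 2.32 CPM in mock and 3.43, 3.00 and 2.68 CPM in knockdown libraries, a log2 difference of 0.29 (SE 0.35).

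The other members lay closer to 0. IRF7, which switches on interferon genes in chickens, was at 8.53, 6.39 and 8.62 CPM in mock and 8.33, 8.15 and 11.7 CPM in knockdown libraries, and the groups overlapped. IRF2 and IRF8 had log2 differences of 0.10 (95% interval -0.12 to 0.31) and 0.00 (95% interval -0.20 to 0.21), and IRF2 was at 0.03 without mock replicate 2.

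STAT2, the partner of IRF9 in mammals, differed by less than its spread. It was at 12.2, 12.9 and 10.1 CPM in mock and 8.98, 10.6 and 12.6 CPM in knockdown libraries, a log2 difference of -0.13 (95% interval -0.56 to 0.29). The groups overlapped.

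The type I receptor chain gene IFNAR1 averaged 64.4 ± 0.563 CPM in mock and 64.7 ± 3.24 CPM in knockdown cells, and IFNAR2 had a log2 difference of 0.00 (95% interval -0.24 to 0.25). In the list of interferon receptors, Janus kinases, STATs and their SOCS and PIAS inhibitors, 0 of 26 tested genes were called, 13 lay above 0 and 13 below, and the median was 0.00. Its 4 genes of smallest p were IFNGR1, PIAS1, PIAS2 and SOCS4, with log2 differences of 0.17, 0.14, 0.12 and 0.19. Without mock replicate 2 the values of IFNGR1, PIAS2 and SOCS4 were 0.08, 0.02 and 0.35, and leaving out other single libraries took SOCS4 as low as 0.05. The 95% interval lay within 2-fold for 24 of the 26 genes.

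Of the interferon-stimulated genes, 40 of the 51 matched were tested and 0 were called. The median log2 difference was 0.11, with 25 genes above 0 and 15 below. Without mock replicate 2 it was 0.06, with 26 above and 14 below. The groups did not overlap for 3 of the 40, all with knockdown higher, beside 4.71% of all genes tested.

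PARP12, an antiviral ADP-ribosyltransferase, had the smallest p of the list. Its level was 26.3, 24.6 and 27.0 CPM in mock and 34.6, 28.1 and 33.1 CPM in knockdown libraries, a log2 difference of 0.30 (SE 0.13). The groups did not overlap, and its edgeR adjusted p was 0.997. B2M, the light chain of MHC class I, was at 65.7, 56.5 and 69.2 CPM against 80.0, 67.5 and 80.3 CPM, a log2 difference of 0.25 (SE 0.15), with overlapping groups.

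TDRD7 and HELZ2, both induced by interferon, had log2 differences of 0.23 (SE 0.14) and 0.33 (SE 0.22). Without mock replicate 2 these were 0.13 and 0.18, and HELZ2 was 0.52 without mock replicate 1. IRF1 and the ISG12-type gene listed as IFI6 were the other genes without overlap, and IFI6 rested on 20 counts in the 6 libraries. For GBP1, a guanylate-binding protein, the difference was -0.34 (SE 0.24). No interferon-stimulated gene on the list was called in the later average, where the smallest edgeR adjusted p among them was 0.612.

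**Figure D3:**
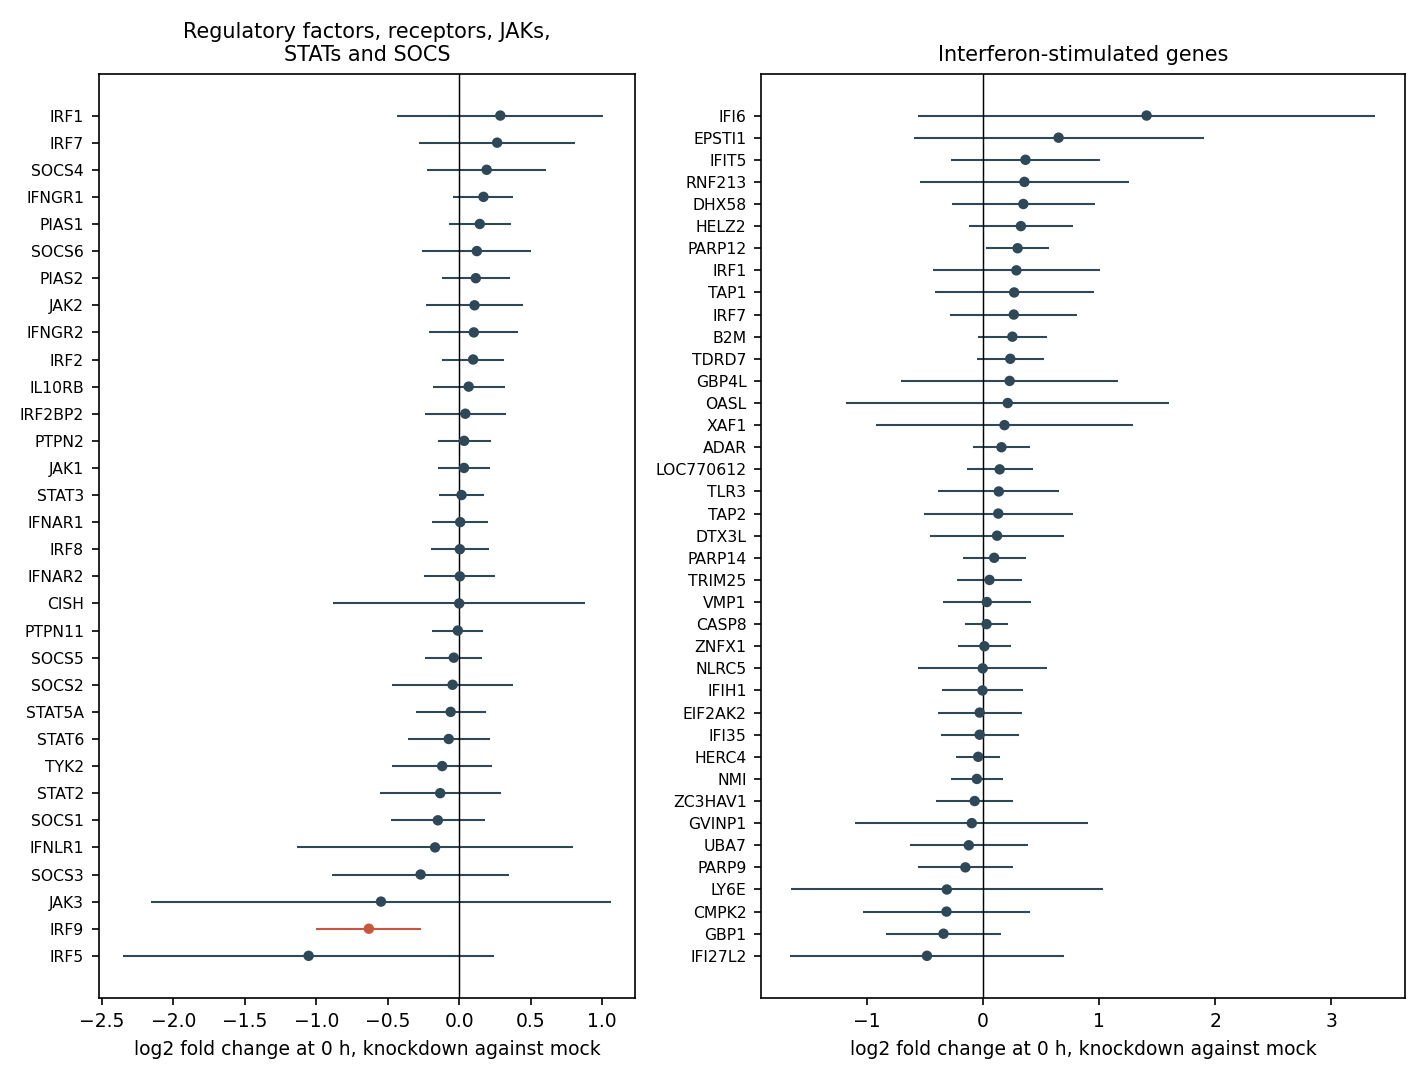
Log2 fold change of knockdown against mock at 0 h (horizontal axes) with 95% intervals, for the interferon regulatory factors, receptors, Janus kinases, STATs and SOCS genes (left) and the interferon-stimulated genes (right) that were tested and are reported here, ordered by value. IRF9 (red) and PARP12 are the genes whose intervals lie on 1 side of 0, and the wide intervals belong to genes near or under 1 CPM.

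Upstream of interferon, 0 of 19 cytosolic sensors, 0 of 19 kinases and TRAF adaptors and 0 of 11 Toll-like receptor genes tested were called. Their median log2 differences were 0.06, -0.01 and 0.08, and 0.02, 0.04 and 0.02 without mock replicate 2. IFIH1 was at 11.7, 9.31 and 12.2 CPM in mock and 9.94, 12.8 and 10.3 CPM in knockdown libraries, with a log2 difference of 0.00 (95% interval -0.35 to 0.35). TLR3 was at 5.88, 6.44 and 6.49 CPM against 7.27, 6.41 and 6.98 CPM, a log2 difference of 0.14 (SE 0.25). DHX58, the LGP2 helicase, averaged 3.07 ± 0.284 CPM in mock and 3.91 ± 0.538 CPM in knockdown cells. The groups overlapped for all 3 genes.

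In the cytokine list 0 of 24 tested genes were called, at a median of -0.04, with 10 above 0 and 14 below. Without mock replicate 2 the median was 0.03, with 14 above and 10 below. The chemokine IL8L1 was at 1.79, 1.92 and 1.72 CPM in mock and 4.24, 3.76 and 2.18 CPM in knockdown libraries, a log2 difference of 0.90 (SE 0.48) without overlap. For its neighbour IL8L2 the values were 139, 78.6 and 68.7 CPM against 168, 145 and 61.4 CPM, so the groups overlapped. IL18, a cytokine of the interleukin 1 family, was at 10.6, 14.3 and 11.8 CPM against 9.04, 9.62 and 8.66 CPM, a log2 difference of -0.43 (SE 0.31) without overlap. Among 12 NF-kB subunits and inhibitors 0 were called, and RELA had the smallest p with a log2 difference of 0.22 (SE 0.19), or 0.15 without mock replicate 2.

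Several lists leaned to 1 side, and for most of them the lean shrank when mock replicate 2 was left out. Of 33 matrix genes tested, 28 were below 0, at a median of -0.18, and 0 were called. Their summed level was 11269, 14688 and 11628 CPM in mock and 11372, 11568 and 11031 CPM in knockdown libraries, so only mock replicate 2 was far from the rest. Without it 21 of 33 were below 0 and the median was -0.02. COL3A1, a fibrillar collagen, was at 245, 522 and 337 CPM in mock and 271, 263 and 273 CPM in knockdown libraries. ELN, which encodes elastin, was at 41.9, 82.9 and 55.2 CPM against 41.0, 39.3 and 44.8 CPM.

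Heat shock genes leaned the other way. Of 22 tested, 19 were above 0 and 0 were called, at a median of 0.21, and without mock replicate 2 it was 17 of 22 at a median of 0.08. HSPA8, the constitutive HSC70 chaperone, was at 6663, 4569 and 6905 CPM in mock and 7417, 7504 and 7812 CPM in knockdown libraries. DNAJB1, a co-chaperone, was at 475, 204 and 383 CPM against 503, 508 and 500 CPM. For both genes the groups did not overlap and mock replicate 2 was the lowest library. In the list, 5 of the 22 were higher in knockdown without overlap, beside 4.71% of all genes tested.

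Immediate early factors, the first genes switched on by growth factors and stress, were above 0 in 18 of 21 cases at a median of 0.24. Leaving out mock replicate 2 gave 15 of 21 at 0.06. EGR1 was at 70.1, 38.6 and 73.2 CPM in mock and 78.6, 78.0 and 85.4 CPM in knockdown libraries. FOS ranged from 9.63 to 39.7 CPM in mock and from 14.0 to 34.0 CPM in knockdown libraries.

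Fibroblast markers were below 0 for 14 of 16 tested genes at a median of -0.15, and for 12 of 16 at -0.05 without mock replicate 2. PDGFRA, a growth factor receptor, was at 2.08, 1.60 and 1.52 CPM in mock and 0.606, 0.767 and 1.40 CPM in knockdown libraries, a log2 difference of -0.90 (SE 0.48) without overlap. Cell cycle genes were below 0 for 27 of 35 at a median of -0.05, and for 19 of 35 at -0.01 without mock replicate 2. Sterol synthesis genes kept their lean without mock replicate 2, with 13 of 20 below 0 at a median of -0.09, and 17 of 20 at -0.10 without that library. Their summed level was 2555, 2028 and 1765 CPM in mock and 2139, 2145 and 1721 CPM in knockdown libraries, so mock replicate 1 was the highest. The median of this list without mock replicate 1 was not computed. No gene of these lists was called.

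The mitochondrial ribosomal RNAs separated the groups, an observation chosen after their values were seen. J6367_mgr01 was at 7018, 7052 and 6379 CPM in mock and 5138, 5665 and 4873 CPM in knockdown libraries, a log2 difference of -0.38 (SE 0.15). J6367_mgr02 was at 2645, 2693 and 2733 CPM against 2186, 2335 and 2259 CPM, a log2 difference of -0.25 (SE 0.12). The groups did not overlap for either, and neither was called (edgeR adjusted p = 0.997). Of all genes tested, 5.01% were lower in knockdown without overlap and 9.72% had no overlap in either direction. Poly(A) selection removes most ribosomal RNA, and the part of each library's enrichment in these values was not tested. The 13 mitochondrial protein-coding genes took 1.92 to 2.46% of counts in mock and 1.99 to 2.22% in knockdown libraries. In the later average the 2 ribosomal RNAs had log2 differences of -0.07 and -0.05, which joined opposite signs. J6367_mgr01 stood at 0.30 at 30 min, -0.08 at 1 h and -0.41 at 6 h, and J6367_mgr02 at 0.16, -0.11 and -0.21.

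The resting transcriptome was described over all 6 libraries together. Of 25466 genes in the files, 11429 (44.9%) reached a mean of 1 CPM and are called present. Another 4086 were under 1 CPM but had over 3 counts in at least 1 library and are called trace, and 9951 stayed at or under the limit of 3 counts, 7049 of them with no count in any of the 6 libraries. Present genes included 10557 of 18023 protein-coding genes and 793 of 5789 long non-coding RNA genes. At least 10 CPM was reached by 8467 genes, 100 CPM by 2454 and 1000 CPM by 71. A gene's counts grow with its length, and transcript lengths were not used here, so the levels below give shares of the counts and their order is not an order of molecules.

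HSPA2, a heat shock protein 70 gene, took the largest share, 2.04% of counts on average. The growth label gives a culture temperature of 25 °C for all 24 libraries, which is low for chicken cells, and its part in these levels was not tested. It was at 23448, 8925 and 17140 CPM in mock and 25908, 26326 and 20769 CPM in knockdown libraries, lowest in mock replicate 2, with overlapping groups. The 10 genes with the most counts took 6.93% together. Other chaperone genes among them were HSPA8 at 6812 ± 1175 CPM, HSP90AA1 at 5710 ± 1012 CPM and the small heat shock gene HSPB9 at 3782 ± 1167 CPM (SD over 6 libraries). The elongation factor EEF1A1 was at 6175 ± 160 CPM, and the mitochondrial genes COX1 and J6367_mgr01 completed the 10 with the genes that follow.

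ACTB, cytoplasmic actin, was at 5357 ± 107 CPM and the glycolytic enzyme GAPDH at 4352 ± 268 CPM. FRMD8, a membrane-associated FERM protein, was at 3956 ± 942 CPM and varied from 2576 to 5153 CPM. Of these genes, ACTB and EEF1A1 varied least from library to library and HSPA2 and HSPB9 most.

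Below the first 10 came enolase (ENO1, 3222 ± 231 CPM), lactate dehydrogenase (LDHA, 2600 ± 407 CPM), the ribosomal proteins RPL4 and RPS2 (2528 and 2479 CPM), and the poly(A)-binding protein PABPC1 (2403 CPM). Adhesion and matrix genes near the top were the integrin chain ITGAV at 2428 ± 131 CPM, fibronectin (FN1) at 2269 ± 130 CPM and the matrix metalloproteinase MMP2 at 2033 ± 332 CPM. LOC776816, for which the gene table gives ACTG1 as a synonym, was at 2394 ± 130 CPM. LOC107052718, LOC101750635 and LOC121106447 were protein-coding entries with no gene name, at 3218, 2800 and 2643 CPM.

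Mitochondrial genes have no introns, so their span is their length and they can be compared per kilobase. Among the 13 protein-coding genes, subunits of cytochrome oxidase led with 4420 CPM per kb for COX3, 4326 for COX1 and 3703 for COX2, followed by CYTB at 2418 and ATP6 at 2273 CPM per kb. The NADH dehydrogenase subunits ranged from 1137 CPM per kb for ND1 to 75.0 for ND6. ND4L overlaps ND4 in position and ATP8 overlaps ATP6, so reads there may have been set aside as ambiguous. The part of these overlaps and of poly(A) selection in the order was not tested. No mitochondrial protein-coding gene was called in the contrast at 0 h, and their log2 differences ran from -0.11 for COX1 to 0.19 for ATP8.

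Of 16 genes for Toll-like receptors and their adaptors, 8 were present, 3 were trace and 5 were at or under the limit. TLR21, the chicken receptor for CpG DNA, was at 13.2 ± 2.41 CPM, TLR1B, a surface receptor for lipopeptides, at 9.62 ± 1.64 CPM and TLR3, which binds double-stranded RNA in endosomes, at 6.58 ± 0.486 CPM (SD over 6 libraries). TLR2, TLR7 and TLR15 had no count in any library, which allows up to 0.151 to 0.215 CPM in a library. TLR2A had 6 counts in all 6 libraries and TLR4, the receptor for lipopolysaccharide, had 2. LY96 and CD14, which help TLR4 bind its ligand, were at 1.60 and 0.980 CPM.

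The adaptors and the chaperone were present. TICAM1, the adaptor of TLR3, was at 58.6 ± 6.35 CPM, MYD88 at 49.4 ± 4.79 CPM, TIRAP at 19.9 ± 2.60 CPM and the trafficking chaperone UNC93B1 at 9.71 ± 0.861 CPM. Thus transcripts were measured for TLR3 and its adaptor, while those of TLR7, the receptor for single-stranded RNA, were not detectable at this depth.

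Of 19 cytosolic sensors matched, 18 were present. IFIH1 (MDA5) was at 11.05 ± 1.39 CPM, DHX58 (LGP2) at 3.49 ± 0.601 CPM and their adaptor MAVS at 22.9 CPM. EIF2AK2, the kinase PKR that halts translation on double-stranded RNA, was at 25.5 ± 3.78 CPM, ADAR, which edits such RNA, at 75.7 ± 6.61 CPM and ZNFX1, a helicase that binds viral RNA, at 186 ± 22.2 CPM. On the DNA side, CGAS, which makes the second messenger cGAMP, was at 17.4 ± 1.75 CPM, and TMEM173, its receptor STING, at 1.27 ± 0.420 CPM.

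NLRP3 of the inflammasome was at 6.46 ± 1.04 CPM and NOD1, a sensor of bacterial peptidoglycan, at 48.8 ± 4.08 CPM. NLRC3 was the 1 sensor under 1 CPM, at 0.647 CPM. Downstream, 18 of 19 kinases and adaptors matched were present, with TBK1 at 54.1 ± 3.56 CPM, TRAF3 at 115 ± 10.6 CPM and MAP3K7 (TAK1) at 221 ± 6.08 CPM. The exception was IKBKE, the kinase related to TBK1, at 0.539 ± 0.260 CPM.

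**Figure D4:**
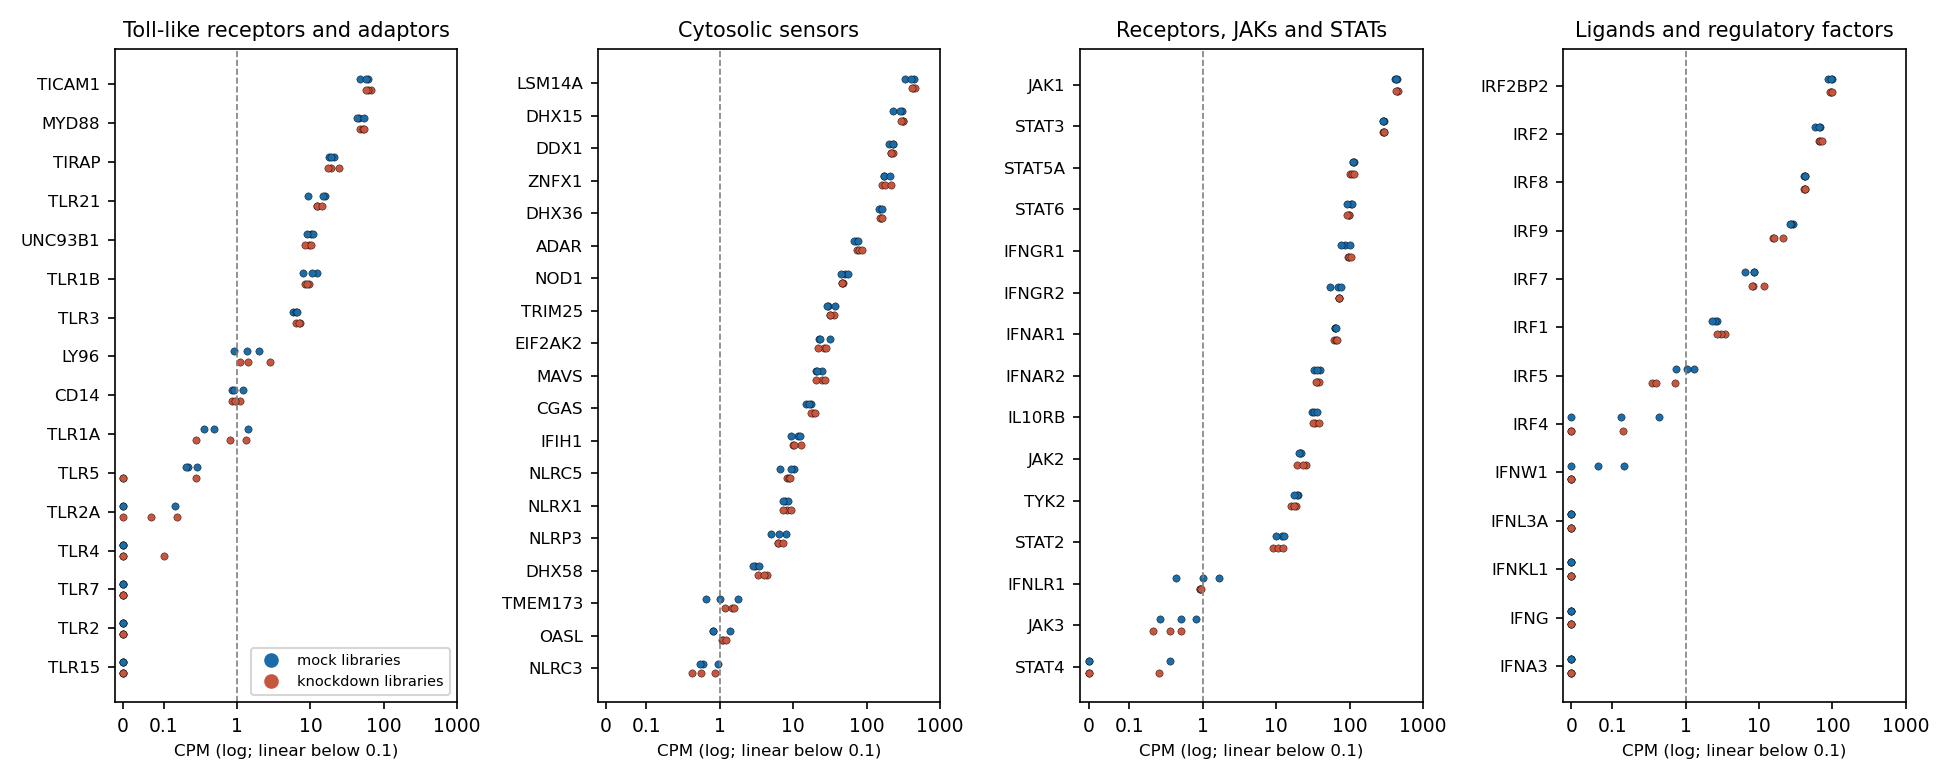
Level in CPM (horizontal axes, log scale above 0.1 and linear below) in each of the 6 resting libraries for Toll-like receptors and adaptors, cytosolic sensors, receptor, Janus kinase and STAT genes, and interferon ligands with regulatory factors, mock in blue and knockdown in red. The dashed line marks 1 CPM, and TLR2, TLR7, TLR15 and the ligands lie at or near 0 while IFIH1, TLR3 and STAT2 lie to its right.

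Of 8 interferon ligand entries 5 were matched, and none of the 5 was present. IFNA3, IFNG, IFNKL1 and IFNL3A had no count in the 6 libraries, and IFNW1 had 3 counts, all in mock libraries. The receptors for type I interferon were present, with IFNAR1 at 64.5 ± 2.09 CPM and IFNAR2 at 36.4 ± 2.18 CPM. The type II receptor genes IFNGR1 and IFNGR2 were at 94.0 and 69.2 CPM. IFNLR1, the specific chain for type III interferon, was at 0.977 ± 0.393 CPM, and its shared chain IL10RB at 34.2 ± 2.91 CPM.

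All tested Janus kinases except JAK3 were present, with JAK1 at 439 CPM, JAK2 at 21.9 ± 2.11 CPM and TYK2 at 18.2 ± 1.34 CPM. STAT2 was at 11.2 ± 1.58 CPM and STAT3 at 291 ± 4.77 CPM. STAT4, a factor of lymphocytes, had 10 counts in all. The brakes SOCS1 and SOCS3 were at 24.9 and 5.23 CPM.

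Among the regulatory factors, IRF2 was at 66.3 ± 4.79 CPM, IRF8 at 42.1 ± 0.594 CPM, IRF7 at 8.62 ± 1.71 CPM and IRF1 at 2.76 ± 0.397 CPM. IRF8 is best known from myeloid and B cells, and here it lay between 41.3 and 42.8 CPM in all 6 libraries. IRF4, a lymphocyte factor, had 10 counts.

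Of 51 interferon-stimulated genes matched, 37 were present, 7 were trace and 7 were at or under the limit. The present ones included IFITM3 (listed as LOC770612) at 102 ± 13.6 CPM, NMI at 85.3 ± 7.06 CPM, PARP14 at 42.4 ± 3.81 CPM and HELZ2 at 16.9 ± 3.52 CPM. Other members were near or under the threshold. IFIT5, which binds viral RNA, was at 2.22 ± 0.472 CPM and OASL at 1.06 ± 0.229 CPM. MX1, a dynamin-like antiviral GTPase, had 10 counts, all in mock replicate 2 and knockdown replicate 3. RSAD2, the antiviral enzyme viperin, and SAMD9L had none.

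MHC class I transcripts were present at rest, with the heavy chain genes BF2 at 17.1 ± 2.62 CPM and BF1 at 3.08 ± 0.893 CPM and the light chain B2M at 69.8 ± 9.11 CPM. BF1 and BF2 are near-identical neighbours, so the split of reads between them is uncertain. The peptide transporters TAP1 and TAP2 were at 2.96 and 2.93 CPM. The class II chains BLB1 and BLB2 were at 0.260 and 0.699 CPM, both trace, and the invariant chain CD74 was at 8.58 ± 1.11 CPM.

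Of 50 cytokines and chemokines matched, 16 were present and 16 had no count. CCL4, a chemokine for monocytes, was at 365 ± 35.6 CPM, CXCL12, a fibroblast chemokine, at 158 ± 6.84 CPM and IL8L2, a chicken homologue of interleukin 8, at 110 ± 45.7 CPM. IL8L2 varied from 61.4 to 168 CPM, low in both libraries numbered 3 and high in both numbered 1. MIF, LIF and CSF1 were at 390.5, 61.5 and 42.4 CPM. IL1B had 10 counts, and IL6, IL10, IL2, IL4 and IL21 had none.

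Of 72 cytokine and growth factor receptors matched, 41 were present. They included FGFR1 at 237 CPM, IGF1R at 193 CPM, PDGFRB at 185 CPM, OSMR at 177 CPM, IL17RA at 181 CPM and the shared signalling chain IL6ST at 106 CPM. IL6R, which binds interleukin 6 itself, was at 1.31 ± 0.369 CPM. Several receptors of the list known from leukocytes were low or not detected, though not all such members are named here. CCR2, CX3CR1, CSF3R, CSF2RB and IL7R had 0 counts and CXCR4 had 2, while CSF1R and IL21R were trace at 0.808 and 0.405 CPM. The death receptor genes TNFRSF10B and FAS were at 73.3 and 44.3 CPM. CD40, a receptor of the TNF family that is also known from leukocytes, was present at 43.7 ± 2.03 CPM.

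The labelled cell type was checked against markers, and 16 of 17 fibroblast markers were present. FN1 at 2269 CPM, vimentin (VIM) at 1702 ± 160 CPM and the collagen chain COL1A1 at 1108 ± 136 CPM led the list. FAP and THY1, surface markers of fibroblasts, were at 249 and 171 CPM. PDGFRA was near the threshold at 1.33 ± 0.551 CPM, and S100A4 was the 1 marker under it, at 0.271 CPM.

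In each of the 7 lists for other cell types, 0 to 5 members were present. None of 13 muscle genes and none of 10 germ or pluripotent cell genes was present, with MYF5, MYOG, TNNT2, NANOG, LIN28A and DDX4 at 0 counts and MYOD1 at 1 count. Of 11 epithelial genes 1 was present, the transcription factor GRHL2 at 8.74 ± 0.316 CPM, while EPCAM, KRT8, KRT18 and CLDN4 had no count. Their summed level was 8.61 to 9.15 CPM in mock and 8.94 to 9.96 CPM in knockdown libraries, nearly all of it GRHL2.

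Of 10 endothelial genes 2 were present. ERG, an ETS transcription factor also made in developing cartilage, was at 195 ± 16.4 CPM and PECAM1 at 1.75 ± 0.591 CPM, while CDH5, KDR and VWF were at 0.310, 0.111 and 0.423 CPM. Of 16 blood and immune genes 5 were present. RUNX1 was at 72.9 ± 8.09 CPM, CD3E, a chain of the T cell receptor complex, between 9.82 and 13.2 CPM, LAPTM5 at 5.85 ± 1.59 CPM and PTPRC (CD45) at 1.55 ± 0.506 CPM. CD8A, CD79B and the globins HBA1 and HBBA had no count, SPI1 had 3 and LCP1 had 1. The summed level of the blood list was 88.7 to 101 CPM in mock and 107 to 113 CPM in knockdown libraries, most of it RUNX1. The groups did not overlap in this sum, nor in RUNX1 itself, which was named above for its small p. Of all single genes tested, 9.72% had groups without overlap. The part of the sum in the other results was not tested.

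Of 14 neural genes 5 were present, led by nestin (NES) at 397 ± 56.5 CPM and the tubulin TUBB3 at 309 ± 21.7 CPM, while SYT1, STMN2, ELAVL4 and OLIG2 had no count. Of 16 cartilage, bone and fat genes 4 were present. RUNX2, the bone master regulator, was at 28.0 ± 3.41 CPM, alkaline phosphatase (ALPL) at 16.7 ± 2.06 CPM, PPARG at 10.4 ± 2.62 CPM and BGLAP at 5.24 ± 0.372 CPM. The cartilage genes SOX9, COL2A1 and ACAN had 2, 1 and 0 counts.

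**Figure D5:**
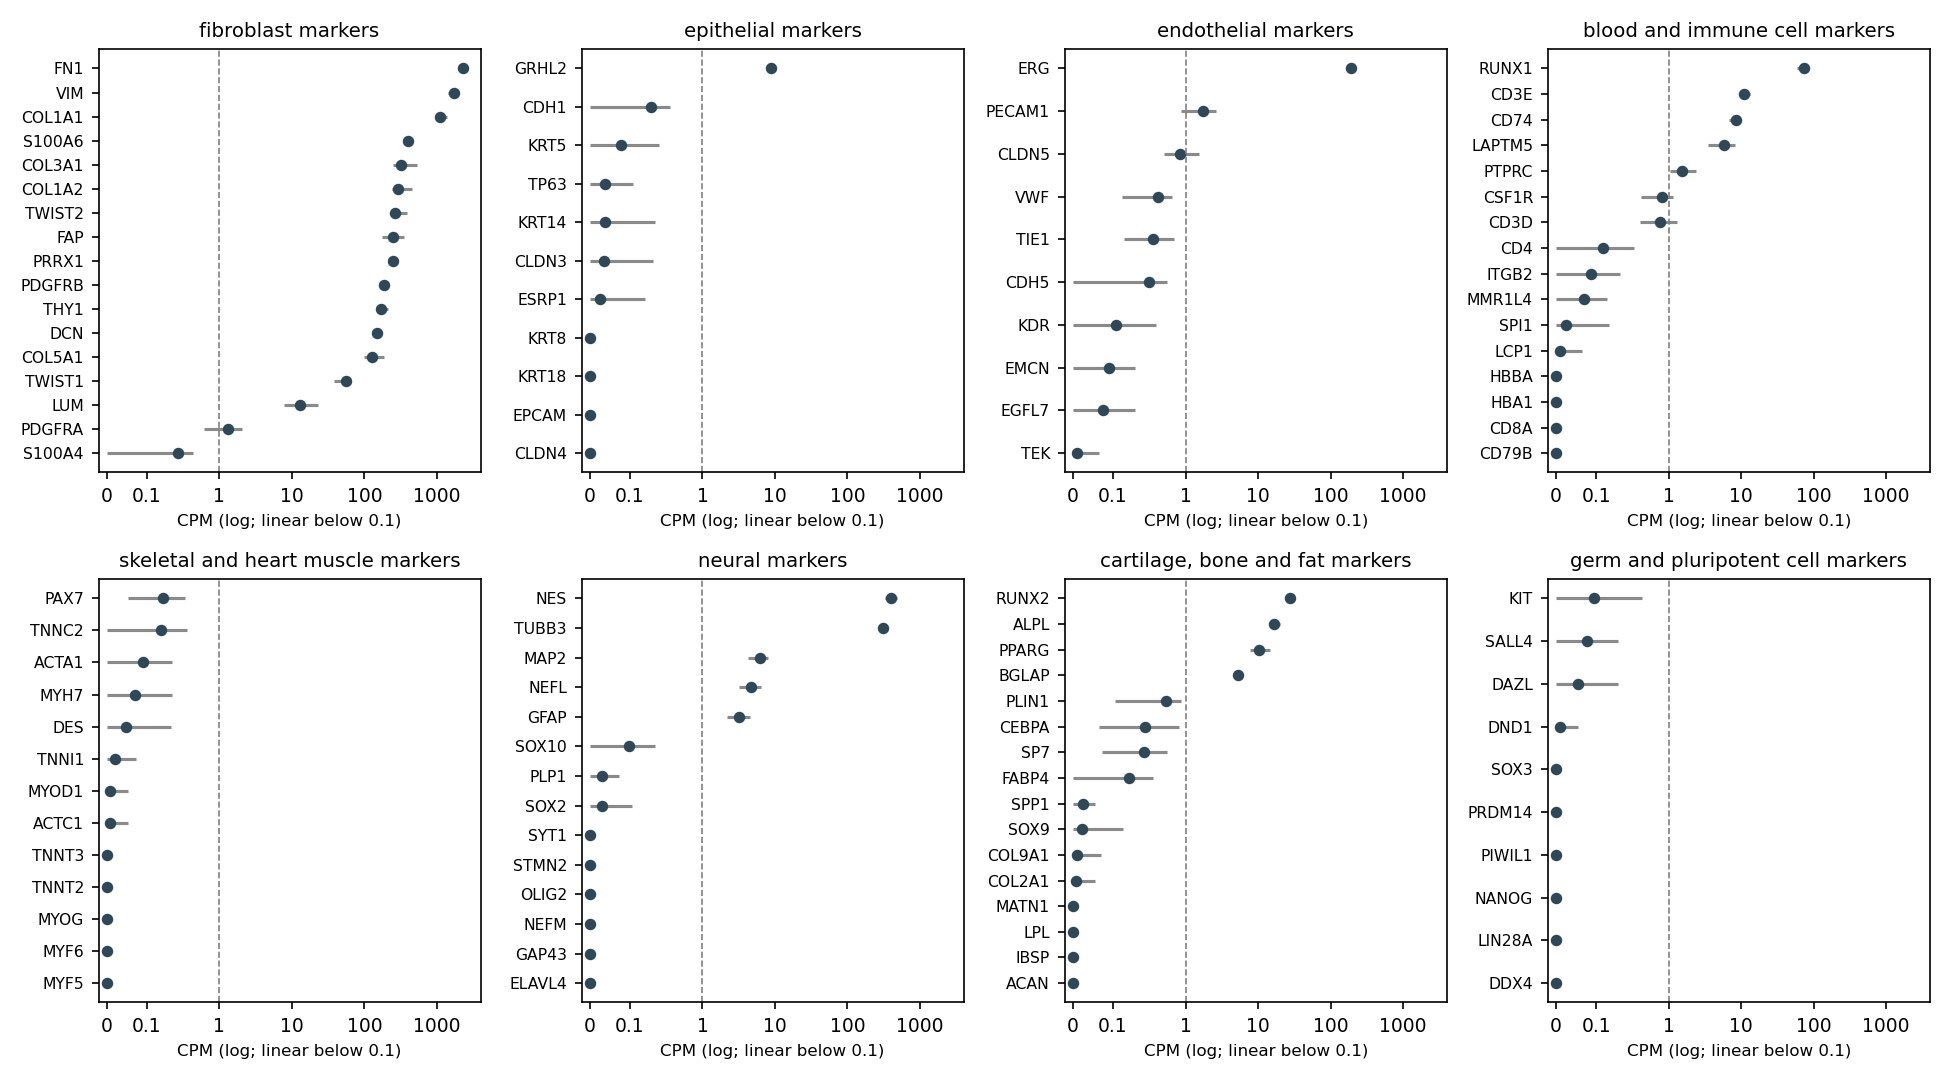
Mean level over the 6 resting libraries in CPM (horizontal axes, log scale above 0.1 and linear below) of the genes of 8 cell type marker lists, with grey lines from the lowest to the highest library and a dashed line at 1 CPM. Fibroblast markers lie mostly right of the line, and the other lists lie mostly left of it, with ERG, RUNX1, NES and TUBB3 among the exceptions.

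Positional identity was read from homeobox and T-box genes, of which 21 of 47 matched were present. PRRX1, a factor of limb mesenchyme, was at 246 ± 26.5 CPM, EN1, a factor of ventral limb ectoderm and dermis, at 97.5 ± 12.1 CPM and IRX5 at 118 ± 6.33 CPM. PITX1, which specifies the hindlimb in chick embryos, was at 26.9 ± 1.75 CPM. Its partner TBX4 had 4 counts, and the forelimb factor TBX5 had none. HOXA9, HOXA10 and HOXA11 were at 18.8, 12.1 and 6.97 CPM and HOXC9 and HOXC10 at 9.59 and 34.7 CPM. The HOXD genes HOXD9 to HOXD12 had no count and HOXD13 had 3.

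The line's growth state was visible in 35 of 36 cell cycle genes present. TOP2A, a topoisomerase of dividing cells, was at 601 ± 56.8 CPM, PCNA at 298 ± 15.9 CPM, MKI67 at 248 ± 27.0 CPM and CDK1 at 238 ± 11.6 CPM. CDKN1A, an inhibitor of cyclin-dependent kinases, was at 4.64 ± 2.94 CPM and ranged from 1.28 to 7.87 CPM. TERT, the telomerase subunit, was at 2.13 CPM, and CDKN2A, a tumour suppressor locus, at 215 ± 13.4 CPM. All 20 sterol synthesis genes matched were present, from INSIG1 at 9.45 ± 2.12 CPM to SREBF2 at 346 ± 52.6 CPM.

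The count of present genes changed little with the rule. It was 11442 with library totals left unscaled by TMM, 11446 over the 3 mock libraries alone and 11417 without mock replicate 2. Requiring 1 CPM in each of the 6 libraries left 10812 genes, and thresholds of 0.5 and 2 CPM gave 12366 and 10572.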

How the data were processed

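Per the labels' protocols, total RNA was extracted with a Direct-Zol kit and made into directional poly(A)-enriched libraries. The authors deposited 1 table per library of whole-number counts per gene, not normalized. The submitters' processing notes name the aligner STAR 2.7.11b, the counter HTSeq 2.0.5, Trim Galore 0.6.10, edgeR 3.40.2, FastQC 0.12.1 and the build GRCg7b. They state no strand setting for counting, so overlapping and antisense genes are uncertain. HTSeq's summary lines stayed out of library sizes: reads in no gene came to 14.6 to 16.6% of the counts in genes plus these lines, ambiguous reads to 1.22 to 1.31% and reads not uniquely aligned to 3.68 to 3.82%. Genes with near-identical copies may be undercounted.

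In the supplied gene table of GRCg7b, 25216 of the files' identifiers were found as symbols, 13 were found as locus tags and 237 were not found. Its spans include introns, so levels per kilobase could be made only for mitochondrial genes, and the planned naming of the 25 genes with the most CPM per kb was not done. Within each group at 0 h, no library was a copy of another (chi-square per degree of freedom between replicates 3.08 to 30.3). Other pairs of libraries were not checked in this way.

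In R 4.3.3, genes were filtered with filterByExpr (13000 kept), scaled by TMM, and fitted with edgeR 4.0.16 (glmQLFit, glmQLFTest) as 8 group means over all 24 libraries, with 16 residual degrees of freedom; the common biological variation (BCV) was 14.0%. P-values are two-sided and adjusted by Benjamini-Hochberg over all tested genes, with calls at 0.05. SEs are the log2 fold change over the square root of F, and 95% intervals are unadjusted. DESeq2 1.42.0 and limma 3.58.1 (voom) were alternatives, and the steps were tested on simulated data.

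The groups come from the sample titles. The comparisons, members and gene lists were chosen with earlier results of these data known. Genes named are IRF9, up to 10 genes per direction (called genes first, then smallest p) with a symbol and 5 CPM in the higher group, the 25 with the highest mean CPM, any list member's level, and the 4 members of smallest p of a list. Other genes named for a difference were chosen after their values were seen. Some genes that the rule names are not reported here.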

Additional observations from a re-analysis of the deposited data

How the results depend on the processing

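Under 15 alternatives (the 6 libraries alone, the replicate block, RLE scaling, other filters, DESeq2, limma voom and left-out libraries), 0 genes were called at 0 h, and 116 to 715 had an unadjusted p under 0.05. IRF9 stayed below 0 in each, from -0.80 (without knockdown replicate 3) to -0.54 (without knockdown replicate 1) on the log2 scale, never with an adjusted p under 0.775, and its rank by p ran from 1 to 21. In the 13 of these that also fit the later times, IRF9 was the 1 gene called in the later average and 0 genes were called for the difference from 0 h. The 19 other named genes kept their sign in 285 of 285 pairs of gene and setting, with 0 past the threshold. For 86 further genes, those of the lists and the mitochondrial ribosomal RNAs, it was 1266 of 1280, also with 0 past the threshold. Nearly all of these genes were chosen by small p in the same libraries, which favours a kept sign.

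The labels number replicates 1 to 3 in both groups, and the main model did not pair them. Same-numbered libraries correlated at 0.0849, 0.0521 and 0.373 in their deviations from group means. Not every library correlated best with its own number, but those numbered 3 were alike. They lay at -8.42 in mock and -10.1 in knockdown on the second principal component, which held 22.7% of the variance. The other resting libraries lay between -0.34 and 8.49. With the replicate block, IRF9 stood at -0.64 (edgeR adjusted p = 0.959) over all 24 libraries and at -0.65 (edgeR adjusted p = 0.775) over the 6, and 0 genes were called in both. Over the 6 libraries, 715 genes had an unadjusted edgeR p under 0.05 with the block and 404 without it.

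The medians of the matrix, heat shock, immediate early and fibroblast marker lists shrank without mock replicate 2 at 0 h, but the signs still leaned. Above 0 were 17 of 22 heat shock and 15 of 21 immediate early genes. Below 0 were 21 of 33 matrix genes and 12 of 16 fibroblast markers. Over all tested genes 6731 of 13286 were above 0. With the 4 libraries of mock replicate 2 left out, the immediate early median was 0.06. These alternatives were chosen after seeing the data. At a threshold of 2 CPM, 1 endothelial marker was present. Depth limits genes under about 1 CPM, where a few counts set the level.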

Other observations

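Of 157 genes that the gene table places on chromosome W, 45 reached 1 CPM over the 6 resting libraries and 55 had no count, and of 1465 genes on chromosome Z, 481 reached 1 CPM.

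Mock replicate 2 differed from the other 5 resting libraries in named genes beyond the lists above, chosen after their values were seen. PODN, a matrix proteoglycan, was at 83.4 CPM there and at 22.6 to 44.9 CPM in the others. AOC3, an amine oxidase, was at 4.42 CPM and at 10.9 to 16.1 CPM in the others. IER3, an early response gene, was at 276 CPM against 629 to 751 CPM. RASD1 followed another split, with 29.2, 6.12 and 4.70 CPM in mock and 23.7, 22.6 and 5.87 CPM in knockdown libraries.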
